A study of Homo sapiens with 2 samples.

Results

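The 40 genes described here carry the unfolded protein response and the ATF4 program. They were taken by symbol from the feature lists of both libraries, where each of the 40 was found among 33694 genes. The study asked what loss of the transcription factor SOX9 does to human beta cells. It used iSOX9KO, a human embryonic stem cell line built on Mel1-INS-GFP, which reports insulin expression with green fluorescent protein and carries Cas9 under a doxycycline (DOX) promoter together with guides against SOX9. Cells were differentiated toward beta cells, live cells with high GFP were sorted and reaggregated into enhanced Beta-clusters (eBCs), and these were dissociated again for droplet sequencing of live cells. Both groups had the genotype iSOX9KO and carried the Cas9 cassette and the guides at the AAVS1 locus in 1 engineered line. The no DOX group got 0 and the DOX group 2 ug/ml doxycycline, starting on day 12 of differentiation. There was 1 library per group, so the difference between libraries could not be tested. Cell classes were present in both libraries but were defined by clustering these same cells, so their differences are given without a test. Every interval below covers counting error only.

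The no DOX library had 30288 barcodes and a median of 15991 unique molecular identifiers (UMIs), and that labelled DOX 31817 barcodes with a median of 14431. The 2 files shared 369 barcode sequences (1.22% and 1.16% of their barcodes), which were kept. After removal of barcodes under 1000 UMIs and of called doublets, 21808 and 23118 cells remained. They fell into beta-like (7003 and 9858 cells), beta cell progenitor-like (5334 and 5359), alpha-like (5041 and 4113), delta-like (2634 and 1934), proliferating progenitor-like (476 and 492) and duct-like (153 and 178) cells, named from marker genes that exclude the 40. The sort for GFP set which cells could be present. A cluster of 2351 cells with a median of 70.5% mitochondrial UMIs stayed unnamed. The targeted gene, SOX9, stood over all cells kept at 2.998 CPM without DOX (946 UMIs) and at 3.78 CPM with it (1147 UMIs). In beta-like cells it stood at 0.297 CPM without DOX (39 UMIs) and at 0.212 CPM with it (33 UMIs). SOX9 RNA was thus not lower over all cells in the library labelled DOX. It stood far higher in duct-like cells, as given below, so the value over all cells depends on their number. The study reported cutting at the SOX9 locus and less SOX9 protein with DOX in this line, measured in other samples. A count of RNA does not show whether the coding sequence was cut, so the labels are used below as given.

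Proteins that enter the endoplasmic reticulum (ER) are folded there by chaperones and disulfide isomerases, and those that fail are sent back to the cytosol for degradation, a route called ERAD. When unfolded proteins build up, 3 sensors, IRE1 (ERN1), PERK (EIF2AK3) and ATF6, raise the folding and degradation genes through XBP1 and cleaved ATF6, while PERK slows translation and favors ATF4. ATF4 in turn drives amino acid transport and synthesis, and under lasting stress DDIT3 (CHOP). Islet endocrine cells make large amounts of hormone precursor, and beta cells are known to lean on PERK and on XBP1 to keep proinsulin folding.

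Promoters of genes of this kind are known to carry short motifs read by ATF6, XBP1 and ATF4. RefSeq windows on GRCh38.p14, with 250 bases before each transcription start and 50 from it on, were matched for 37 of the 40 genes (CARS and WARS under their newer symbols). PDIA3, SLC7A11 and SHMT2 had no window. The motifs searched, on both strands, were ERSE (CCAAT, 9 bases, CCACG), ERSE-II (ATTGG, 1 base, CCACG), the UPRE core (TGACGTGG) and the ATF4 composite site (TGATGNAA). ERSE was found in 8 of 37 genes (21.6%) and in 25 of 27305 genes in the whole table (0.0916%). ERSE-II was found in 3 (8.11%, against 0.0696% of all genes), the UPRE core in 2 (5.41%, against 0.927%) and the ATF4 site in 5 (13.5%, against 4.46%). None of the 12 ATF4 targets with a window held ERSE or ERSE-II, and 4 of them held the ATF4 site. A match describes letters, not binding, and its absence says only that the letters are not in this window.

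The stretches below show the ERSE and ERSE-II motifs of genes that the results turn on, and the ATF4 site of CHAC1, which cleaves glutathione, and ASNS, which makes asparagine. All lie before the transcription start and read 5′ to 3′ along the gene, with the motifs in capitals. They are HSPA5 (chr9:125241376-125241424, minus strand), HYOU1 (chr11:119057259-119057408, minus strand), XBP1 (chr22:28800588-28800636, minus strand), PDIA6 at 1 of its annotated starts (chr2:10812838-10812886, minus strand), ERO1B (chr1:236282168-236282208, minus strand), SDF2L1 (chr22:21642099-21642139, plus strand), CRELD2 (chr22:49918539-49918587, plus strand), HERPUD1 (chr16:56931951-56932050, plus strand), CHAC1 (chr15:40953247-40953284, plus strand) and ASNS (chr7:97872454-97872491, minus strand).
HSPA5: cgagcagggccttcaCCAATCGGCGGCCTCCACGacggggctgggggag
HYOU1: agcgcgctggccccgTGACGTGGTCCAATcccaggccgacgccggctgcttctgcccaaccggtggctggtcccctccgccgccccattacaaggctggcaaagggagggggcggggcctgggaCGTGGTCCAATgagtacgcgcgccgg
XBP1: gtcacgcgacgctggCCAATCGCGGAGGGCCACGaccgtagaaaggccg
PDIA6: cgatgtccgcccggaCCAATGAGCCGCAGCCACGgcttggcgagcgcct
ERO1B: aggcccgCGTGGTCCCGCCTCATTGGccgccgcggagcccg
SDF2L1: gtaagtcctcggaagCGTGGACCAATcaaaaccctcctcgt
CRELD2: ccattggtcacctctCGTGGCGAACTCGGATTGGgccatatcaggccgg
HERPUD1: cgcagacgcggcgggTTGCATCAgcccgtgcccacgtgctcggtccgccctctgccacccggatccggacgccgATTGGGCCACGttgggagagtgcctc
CHAC1: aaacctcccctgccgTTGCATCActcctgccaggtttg
ASNS: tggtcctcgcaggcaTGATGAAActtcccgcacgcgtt
HSPA5, XBP1 and PDIA6 held ERSE on the gene's own strand, and ERO1B and CRELD2 held it on the other. HYOU1 held ERSE-II at 2 places, with a UPRE core overlapping 1 of them. SDF2L1 and HERPUD1 held ERSE-II, and HERPUD1 held an ATF4 site as well, on the other strand as in CHAC1. ERSE also stood in the windows of HSP90B1 (at 2 places), CALR and CANX, the ATF4 site in those of SLC3A2 and CARS, and the UPRE core in that of CARS, none of which is printed.

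Levels are given as CPM, the UMIs of a gene scaled to the total UMIs of its class, no DOX first and DOX second, and ratios on the log2 scale of CPM with both libraries summed. Where a level runs from 1 value to another, it goes from the second-named class to the first with both libraries summed. In beta-like cells the exact Poisson 95% interval of a level had a median half-width of 2.42% of the level, and in duct-like cells, the smallest class, 19.8% (no DOX library). Of the 40 genes, 39 reached 5 CPM over all cells kept, and SLC7A11 stood at 3.96. With both libraries summed, the delta-like class was the highest of 6 classes for 17 of the 40 genes (3.7% of 12529 genes with 5 CPM in some class) and the lowest for 0 (25%). It was the highest in each library for 16 (2.99% of all genes). The beta-like class was the highest for 0 (4.64% of all genes). These zeros hold for the sum: in the no DOX library alone, delta-like cells were the lowest for ATF6 and beta-like cells the highest for XBP1, and in the DOX library alone beta-like cells were the highest for DDIT4. The duct-like class was the lowest for 16 (26.9%) and the beta cell progenitor-like class for 12 (5.48%). The widest ranges between classes, highest over lowest, were those of PHGDH (duct-like over alpha-like, 4.43), ERO1B (alpha-like over duct-like, 4.16), PSAT1 (duct-like over alpha-like, 3.65), MTHFD2 (proliferating progenitor-like over alpha-like, 3.08) and ERN1 (delta-like over duct-like, 3.05). The narrowest were those of CALR (duct-like over beta cell progenitor-like, 0.59), ATF4 (delta-like over alpha-like, 0.62), DNAJB11 (delta-like over beta cell progenitor-like, 0.69) and PDIA3 (alpha-like over beta cell progenitor-like, 0.72). ATF4, the factor that gives the program its name, thus spanned less between classes at the RNA level than most of its targets, and PDIA3, which pairs with CALR and CANX on glycoproteins, stood at 244 and 248 CPM in the lowest and 407 and 403 CPM in the highest class. Of the 40 genes, 13 were among the variable genes on which cells were clustered, and these counts are a description. PHGDH, ERO1B, PSAT1, MTHFD2 and ERN1 were among these 13, and CALR, ATF4, DNAJB11 and PDIA3 were not. Genes that helped to define the classes can differ between them for that reason, so these ranges are a description too.

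**Figure D1:**
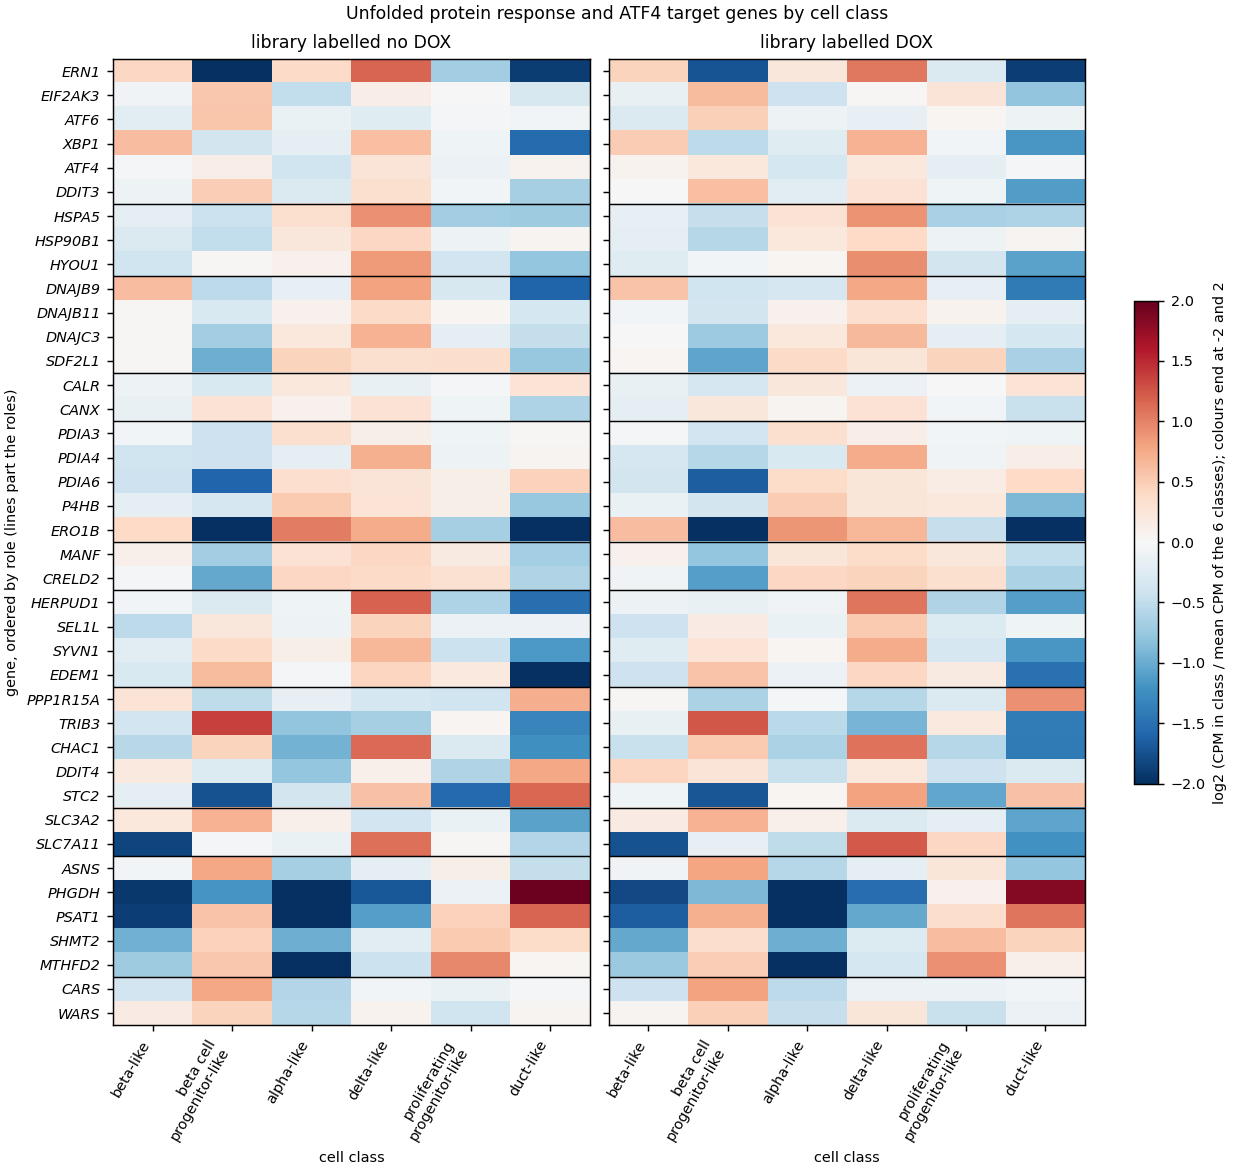
Level of each of the 40 genes in 6 cell classes (columns) of the library labelled no DOX (left) and DOX (right), as log2 of CPM over the mean CPM of the 6 classes, with red above and blue below that mean. ERN1 and ERO1B were dark blue in beta cell progenitor-like and duct-like cells, HSPA5, HYOU1 and HERPUD1 were red in delta-like cells, and PHGDH was red in duct-like cells, in both libraries.

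The first comparison was that of the libraries. With 1 library per group, an effect of DOX cannot be told apart from other differences between the libraries. Over all cells kept and in beta-like cells, no gene of the 40 was past the fold, set at an absolute log2 ratio of 0.5 among genes with at least 5 CPM in 1 of the groups compared. Over all cells kept, 0 of 39 genes were past it upward and 0 downward, against 0.402% and 0.622% of all 10444 genes measured. In beta-like cells the counts were 0 and 0 of 38, against 0.274% and 0.925% of 9839 genes. With so few genes past the fold in all, counts of 0 among about 40 genes are near the background. The median log2 ratio of the genes measured in beta-like cells was -0.00061, beside -0.010 for all genes.

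The ER chaperone BiP (HSPA5) stood at 479.7 and 482 CPM in beta-like cells, and its library ratio there was 0.0077 (95% interval -0.0076 to 0.023). XBP1, whose RNA is spliced by IRE1 to make the active transcription factor, stood at 354 and 329 CPM. Counts per gene do not tell spliced from unspliced XBP1 RNA, here or below. DDIT3, the pro-apoptotic factor CHOP, stood at 53.4 and 58.9 CPM, a ratio of 0.14 (95% interval 0.10 to 0.19). These 3 genes thus differed little between the libraries. The largest ratio in beta-like cells was that of ERO1B, the oxidase that recharges protein disulfide isomerase in endocrine cells. ERO1B stood at 663 and 897 CPM, a ratio of 0.44 (95% interval 0.42 to 0.45), just inside the fold. It was higher in the library labelled DOX in 5 of the 6 classes, with 0.42 (95% interval 0.34 to 0.49) in proliferating progenitor-like cells, and lower in beta cell progenitor-like cells (-0.16, 95% interval -0.20 to -0.11). On the low side of beta-like cells were DDIT4, an inhibitor of mTORC1 (-0.30, 95% interval -0.37 to -0.22), EDEM1, an ERAD lectin (-0.27, 95% interval -0.40 to -0.15), SLC3A2, the shared heavy chain of amino acid transporters (-0.26, 95% interval -0.28 to -0.23), and ERN1 (-0.25, 95% interval -0.32 to -0.19). The 5th to 95th percentile of all genes in beta-like cells spanned -0.22 to 0.19, and ERO1B and these 4 genes lay outside it. So did PHGDH (-0.25, 95% interval -0.31 to -0.19) and CHAC1 (0.22, 95% interval 0.064 to 0.38). CHAC1 was under 5 CPM in beta-like cells of the no DOX library and entered only through the DOX library, so it had to be higher. By construction some of all genes lie outside this range, so a place outside it does not by itself set a gene apart. The class was made up differently in the libraries. Of the finer clusters, the largest, Beta-1-like, held 62.3% and 72.9% of beta-like cells in the no DOX and DOX libraries, Beta-2-like 27.7% and 21.3%, and a Beta-1-like cluster led by metallothionein genes 7.33% and 4.595%. Within Beta-1-like and Beta-2-like cells taken apart, the library ratio was 0.49 and 0.35 for ERO1B, -0.30 and -0.29 for ERN1, -0.25 and -0.41 for EDEM1, -0.38 and -0.032 for DDIT4 and -0.33 and -0.035 for SLC3A2. For PHGDH it was -0.34 and 0.017. For CHAC1, under 5 CPM in Beta-1-like cells of both libraries, it was 0.18 and 0.33. DDIT4, SLC3A2 and PHGDH were thus near 0 in Beta-2-like cells.

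Within classes, 3 genes passed the fold, all in duct-like cells and all lower in the library labelled DOX. There, 3 of 36 were past it downward, against 11.9% of all 11038 genes, and 0 upward, against 9.86%, so their share was no larger than that of all genes. In the 4 classes other than beta-like and duct-like, between 0.45% and 2.42% of all genes were past it in either direction, and 0 of the 40. DDIT4 stood in duct-like cells at 34.3 and 11.5 CPM, a ratio of -1.58 (95% interval -2.19 to -1.001). STC2, a secreted glycoprotein induced by ER stress, stood at 38.3 and 22.3 CPM, a ratio of -0.78 (95% interval -1.25 to -0.32). PHGDH, the first enzyme of serine synthesis, stood at 446 and 315 CPM, a ratio of -0.50 (95% interval -0.63 to -0.38). Duct-like cells numbered 153 and 178, and the 5th to 95th percentile of all genes there spanned -0.81 to 0.73, so DDIT4 alone of the 3 lay outside it. DDIT4, PHGDH, SLC3A2, SYVN1 and P4HB had ratios below 0 in all 6 classes, and ATF6, HSP90B1, DNAJB11, MTHFD2 and CARS had ratios above 0 in all 6. Of all genes, 5.02% were below and 8.61% above 0 in every class, beside 5 of 40 each here, and 25 of the 60 intervals of these genes held 0. Most of these ratios were small, with SYVN1 between -0.22 and -0.023 and HSP90B1 between 0.0066 and 0.18. In beta-like cells, of 97 other pathway genes measured, 0 were past the fold upward and 1 downward, against 0.274% and 0.925% of all genes. The 1 gene was ATF3 (-0.53), with FKBP11 next (-0.41), and NARS (0.21) and SEC62 (0.17) at the high end. Beside these, metallothionein genes of beta-like cells stood lower with DOX (6 of 7 past the fold, median -0.60) and cytosolic heat shock genes had a median of -0.17; their part in these values was not tested.

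**Figure D2:**
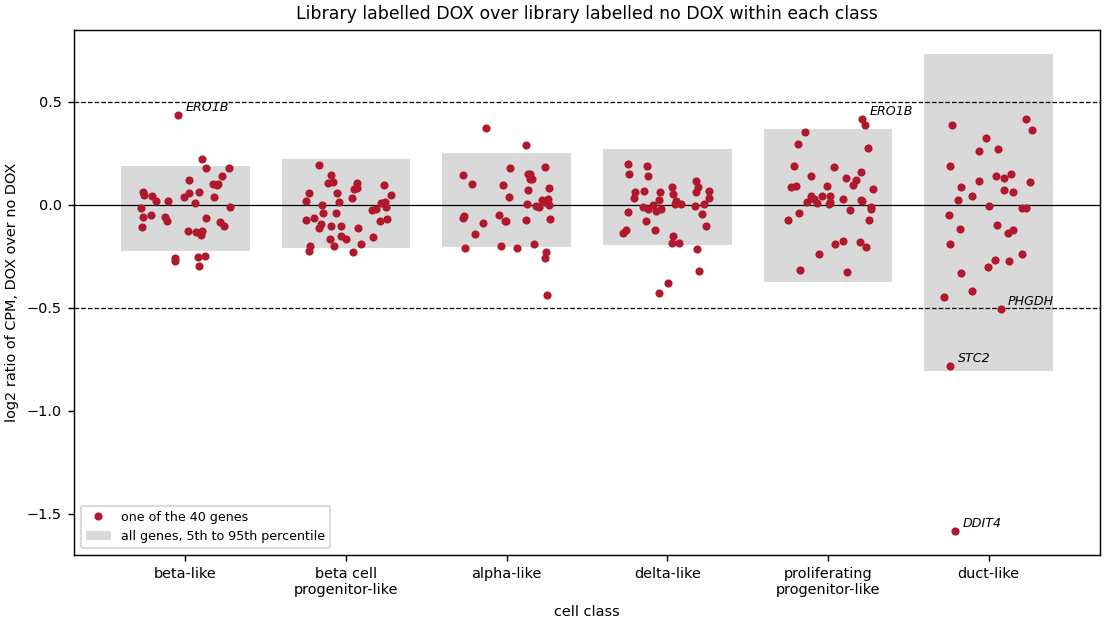
Log2 ratio of CPM, library labelled DOX over library labelled no DOX (vertical), in each of 6 classes (horizontal), with 1 point per gene of the 40 that reached 5 CPM and a gray bar from the 5th to the 95th percentile of all genes. Dashed lines mark the fold of 0.5; the points stay inside it in every class but duct-like, where DDIT4, STC2 and PHGDH lie at -1.58, -0.78 and -0.50.

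Beta-like cells were next compared with beta cell progenitor-like cells, named from markers such as TPH1 and TAC1. On the CPM scale most genes were lower in beta-like cells, with a median log2 ratio of -0.59 over 10990 genes. INS stood at 66563 CPM in progenitor-like and 194559 CPM in beta-like cells, so INS RNA was higher beside this shift. Of 39 genes, 11 were past the fold upward, against 7.49% of all genes, and 15 downward, against 55.3%. With the median of all genes taken off, 20 were higher, against 22.1% of all genes, and 5 lower, against 22.1%. The median of the 39 genes was 0.12. Among genes with 5 CPM in both groups, 10 of 36 (6.11% of all genes) were higher and 13 of 36 (52% of all genes) lower, which leaves out STC2, CHAC1 and PSAT1. Beside this, all 7 metallothionein genes were past the fold upward (median 3.43), as were 7 of 10 immediate early genes (median 0.97). Cells differed in depth too, with medians of 17991 and 14748 UMIs in beta-like and 10816 and 9481 in progenitor-like cells, and with median mitochondrial shares of 6.98% and 7.72% in the former and 9.36% and 9.81% in the latter. The part of these in the values was not tested.

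Among sensors and their factors, ERN1 (IRE1, the kinase and nuclease that splices XBP1) stood at 5.78 and 5.84 CPM in progenitor-like and 31.3 and 26.3 CPM in beta-like cells. Its ratio was 2.298 (95% interval 2.19 to 2.41). XBP1 stood at 179.5 and 159.8 CPM and 354 and 329 CPM, a ratio of 1.00 (95% interval 0.98 to 1.02). Both genes were thus higher in beta-like cells of each library. EIF2AK3 and ATF6, the other 2 sensors, had ratios of -0.69 and -0.77, or -0.10 and -0.18 against the median of all genes. DDIT3 had a ratio of -0.59 (95% interval -0.62 to -0.55) and ATF4 itself of -0.15 (95% interval -0.18 to -0.12). Relative to the median of all genes DDIT3 stood at 0.0023, so its sign turned with the scaling.

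Of 16 folding genes (chaperones, cofactors, isomerases, ERO1B, MANF and CRELD2), 7 were past the fold upward, against 7.49% of all genes, and 0 downward, against 55.3%. Of these 16 genes, 14 had ratios above 0, where 81.4% of all genes were below it. Of the 4 cofactors of BiP, 3 were past the fold upward: SDF2L1, which keeps BiP bound to its clients (134 and 132 CPM, then 266 and 284 CPM), DNAJB9 (ERdj4, 1.05) and DNAJC3 (p58IPK, 0.73). The last, DNAJB11, had a ratio of 0.33. The oxidase ERO1B stood at 118 and 106 CPM in progenitor-like and 663 and 897 CPM in beta-like cells, a ratio of 2.81 (95% interval 2.79 to 2.84), the largest of the 40. PDIA6, an isomerase that also binds IRE1, stood at 104 and 99.6 CPM and 234 and 243 CPM, a ratio of 1.23 (95% interval 1.200 to 1.25). The isomerases PDIA3, PDIA4 and P4HB stood inside the fold, at 0.37, 0.13 and 0.18. MANF and CRELD2, stress-induced ER proteins that can be secreted, had ratios of 0.83 and 1.02. The large chaperones differed less: HSPA5 had a ratio of 0.27, HSP90B1 (GRP94) of 0.30 and HYOU1, the exchange factor of BiP, of -0.30. The lectin chaperones CALR and CANX had ratios of 0.19 and -0.43.

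On the CPM scale 3 of 4 ERAD genes were past the fold downward, against 55.3% of all genes. They were EDEM1 (-0.99), SEL1L, the adaptor of the ubiquitin ligase (-0.67) and SYVN1, that ligase (-0.58), with HERPUD1 at 0.12. Taken against the median of all genes, SEL1L stood at -0.080 and SYVN1 at 0.0080, near it, EDEM1 at -0.40, inside the fold, and HERPUD1 at 0.71, past it upward. None of the 4 was then past the fold downward, against 22.1% of all genes.

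Most genes of the amino acid branch of ATF4 were lower in beta-like cells, on a scale where 81.4% of all genes had a ratio below 0 and 55.3% were past the fold downward. Of 5 genes of serine, one-carbon and asparagine synthesis, SHMT2, MTHFD2, ASNS and PHGDH were past the fold downward with at least 5 CPM in both classes. PSAT1 and CHAC1 were under 5 CPM in beta-like cells and entered only through progenitor-like cells, so they had to be lower. PSAT1, the second enzyme of serine synthesis, stood at 24.1 and 23.04 CPM in progenitor-like and 4.41 and 4.51 CPM in beta-like cells, a ratio of -2.404 (95% interval -2.500 to -2.31). SHMT2 and MTHFD2, mitochondrial folate enzymes, had ratios of -1.42 and -1.24, and ASNS and PHGDH both of -0.84. The tRNA synthetases CARS and WARS had ratios of -1.18 and -0.36. TRIB3, a pseudokinase that dampens ATF4, stood at 27.99 and 24.6 CPM and 8.299 and 9.39 CPM, a ratio of -1.57 (95% interval -1.64 to -1.495). CHAC1, which cleaves glutathione, had a ratio of -0.97. Against the median of all genes, PSAT1, SHMT2, MTHFD2, CARS and TRIB3 stayed past the fold (-1.82, -0.83, -0.65, -0.59 and -0.98), while ASNS and PHGDH stood at -0.25 and -0.25. SLC3A2 was past the fold downward on the CPM scale (-0.52) and turned to 0.068 with the median taken off. In the opposite direction went PPP1R15A (GADD34, which restarts translation after PERK, 0.72). STC2 had a ratio of 1.58 (95% interval 1.45 to 1.701), but it was under 5 CPM in progenitor-like cells and entered only through beta-like cells, so it had to be higher.

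The other genes of these pathways are read against 55.3% lower and 7.49% higher of all genes and their median of -0.59. Of 21 other ATF4 amino acid genes measured, 13 were past the fold downward and 2 upward (median -0.85). Of 22 other folding and glycosylation genes, 8 were past it upward and 4 downward (median -0.018). The ends of these lists were FKBP11, an ER prolyl isomerase (31.98 to 113 CPM, log2 ratio 1.82), PYCR1, a proline synthesis enzyme (1.298), SLC7A5, a leucine transporter (-1.77), and WFS1, the ER protein mutated in Wolfram syndrome (227 to 46.6 CPM, log2 ratio -2.29).

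**Figure D3:**
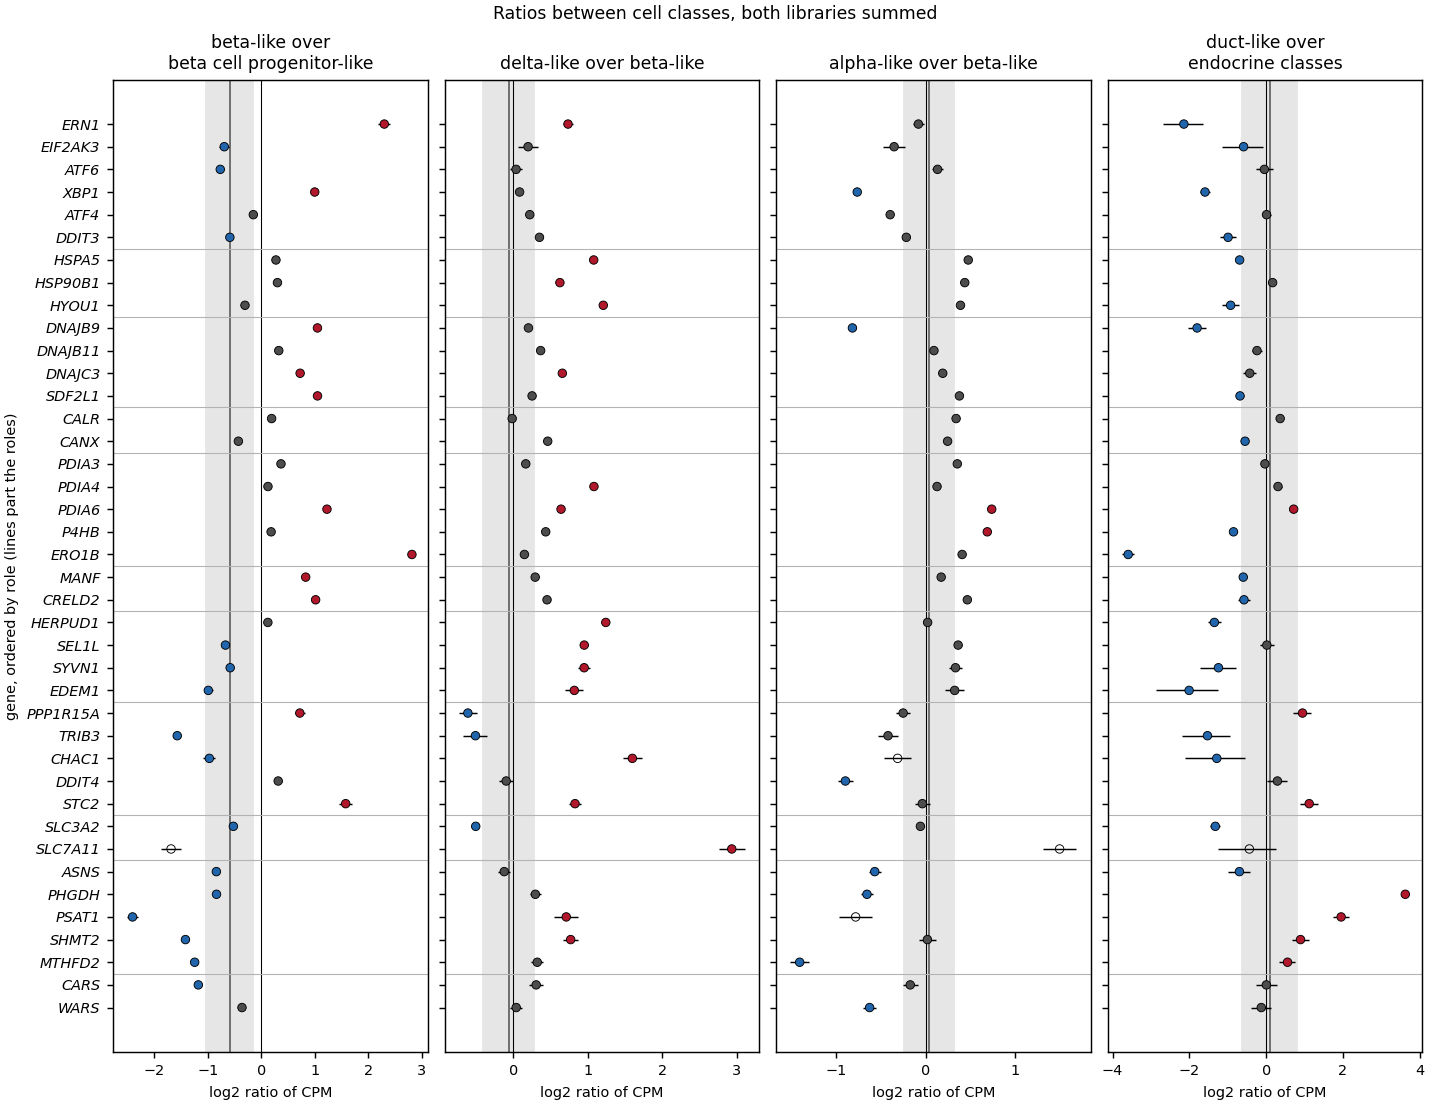
Log2 ratio of CPM (horizontal) for each of the 40 genes (vertical, by role) in 4 comparisons of classes, with bars for the exact 95% counting interval. Red and blue points were past the fold of 0.5 upward and downward, dark points were inside it and open points were under 5 CPM in both classes; the gray band runs from the 25th to the 75th percentile of all genes, with their median as a line. ERO1B lies at 2.81 in the first panel and at -3.59 in the last, and SLC7A11 at 2.93 in the second.

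Delta-like cells, which make somatostatin, held more RNA of the 3 large chaperones and the 4 ERAD genes than beta-like cells. The lectin chaperones did not follow: CALR stood at 508 and 488 CPM in beta-like and 486 and 498 CPM in delta-like cells, and CANX had a ratio of 0.46. Of 40 genes, 16 were past the fold upward, against 13.6% of all 10301 genes, and 3 downward, against 19.3%. With hormone and mitochondrial genes left out of the total, the counts were 27 and 0, against 31.4% and 8.77% of all genes on that scale. Among genes with 5 CPM in both groups, 13 of 37 (10.4% of all genes) were higher and 3 of 37 (17.6% of all genes) lower, which leaves out SLC7A11, CHAC1 and PSAT1. The median of the 40 genes was 0.36, beside -0.063 for all genes. All 3 large chaperones were higher. HSPA5 stood at 479.7 and 482 CPM in beta-like and 1021 and 1008 CPM in delta-like cells, a ratio of 1.08 (95% interval 1.06 to 1.09). HYOU1 stood at 47.5 and 51.7 CPM and 113 and 118 CPM, a ratio of 1.21 (95% interval 1.17 to 1.25), and HSP90B1 had a ratio of 0.62. Each was higher in delta-like cells of both libraries.

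All 4 ERAD genes were past the fold upward, against 13.6% of all genes, with a median of 0.95. HERPUD1, a membrane protein that organizes the ERAD complex, stood at 118 and 107 CPM in beta-like and 279 and 245 CPM in delta-like cells, a ratio of 1.24 (95% interval 1.21 to 1.27). SEL1L and SYVN1 both had ratios of 0.95, and EDEM1 of 0.82. The isomerase PDIA4 stood at 86.00 and 92.2 CPM and 184 and 196 CPM, a ratio of 1.08 (95% interval 1.05 to 1.11). Of the BiP cofactors, DNAJC3 was past the fold (0.66), while the others stood inside it, with DNAJB9 at 0.20 and SDF2L1 at 0.25. XBP1 itself stood at 0.083 (95% interval 0.062 to 0.10). ERN1 and PDIA6 were past the fold too, with ratios of 0.73 and 0.64. With both libraries summed, the order of classes for HSPA5 and HYOU1 thus began with delta-like cells, with alpha-like cells next. HERPUD1 was also highest in delta-like cells, while its intervals in alpha-like (117 and 110.4 CPM) and beta-like cells overlapped.

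Among ATF4 targets, SLC7A11, CHAC1 and PSAT1 were under 5 CPM in beta-like cells with both libraries summed and entered only through delta-like cells, so they had to be higher there and their ratios are a description. SLC7A11, the cystine importer that feeds glutathione synthesis, stood at 1.49 and 1.601 CPM in beta-like and 11.4 and 12.4 CPM in delta-like cells, a ratio of 2.93 (95% interval 2.76 to 3.11). CHAC1 stood at 4.397 and 5.12 CPM and 14.2 and 14.9 CPM, a ratio of 1.597 (95% interval 1.47 to 1.72). STC2, SHMT2 and PSAT1 had ratios of 0.83, 0.77 and 0.71. SLC3A2, which pairs with SLC7A11, went the other way, at 207 and 173 CPM and 138 and 126 CPM, a ratio of -0.51 (95% interval -0.54 to -0.47). TRIB3 (-0.51) and PPP1R15A (-0.61) were also lower, and ATF4 stood at 0.22. With hormone and mitochondrial genes left out of the total, SLC3A2, TRIB3 and PPP1R15A were inside the fold. Of 98 other pathway genes measured, 16 were past the fold upward, against 13.6% of all genes, and 18 downward, against 19.3%, so both counts were near the background. At their high end, ATF3, a stress-induced partner of ATF4, ran from 9.88 to 53.9 CPM, log2 ratio 2.45, DERL3, an ERAD channel protein, at 1.86, and at the low end were ATF5 (-1.92) and GDF15 (-1.49). Immediate early genes also stood higher in delta-like cells (12 of 14 past the fold, median 1.45), and all 7 metallothionein genes were past the fold downward, and the part of either list in these values was not tested.

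Alpha-like cells, which make glucagon, differed from beta-like cells in fewer of the 40 genes. Of 37 genes, 2 were past the fold upward, against 15.7% of all 10337 genes, and 7 downward, against 12.6%. The isomerases PDIA6 (394 and 402 CPM in alpha-like cells, ratio 0.74) and P4HB, the founding protein disulfide isomerase (577 and 524 CPM, ratio 0.69), were higher. HSPA5, HSP90B1, ERO1B and HYOU1 stood inside the fold at 0.47, 0.44, 0.41 and 0.39. In the no DOX library alone, HSPA5 (0.50), HSP90B1 (0.50) and ERO1B (0.62) were past it, so that 5 genes were higher, against 15.4% of all genes, while in the DOX library they stood at 0.44, 0.40 and 0.27. XBP1 stood at 205 and 194 CPM in alpha-like cells against 354 and 329 CPM in beta-like cells, a ratio of -0.76 (95% interval -0.78 to -0.74). DNAJB9 went with it, at 65.6 and 55.9 CPM and 112 and 105 CPM, a ratio of -0.82 (95% interval -0.85 to -0.78). Both were thus lower while the isomerases were higher. DNAJB9 stood alone among the 16 folding genes: the other 15 had ratios above 0, where 45.9% of all genes were below it. Among those 15 were SDF2L1, CRELD2 and DNAJC3, inside the fold. MTHFD2 stood at 6.95 and 8.49 CPM against 20.04 and 20.3 CPM, a ratio of -1.41 (95% interval -1.51 to -1.305), and DDIT4, PHGDH, WARS and ASNS had ratios of -0.90, -0.66, -0.63 and -0.57. Of 98 other pathway genes measured, 11 were past the fold upward and 11 downward. At their ends were ATF3 (1.41), WFS1 (1.18), ATF5 (-1.399) and PYCR1 (-1.59). Immediate early genes stood higher here as well (11 of 14 past the fold, median 0.96), and metallothionein genes lower (median -2.51); their part was not tested.

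Duct-like cells, where SOX9 stood at 253 and 283 CPM, were set against the 4 endocrine classes together. Of 39 genes, 20 were past the fold downward, against 28.4% of all 11713 genes, and 7 upward, against 34.1%. EDEM1, TRIB3 and CHAC1 entered only through endocrine cells, without which 17 of 36 were lower, against 25% of all genes with 5 CPM in both. With hormone and mitochondrial genes left out of the total, 23 of 40 were lower, against 41.8% of all genes, and 5 higher, against 22.9%. The ratios below keep these genes in the total and depend on that scale. ERO1B stood at 50.1 and 65.6 CPM in duct-like and 643 and 773 CPM in endocrine cells, a ratio of -3.59 (95% interval -3.75 to -3.44). INS, which duct cells do not make, had a ratio of -3.13 in the same comparison, and the part of free endocrine RNA in the duct-like levels was not tested. ERN1 had a ratio of -2.14 (95% interval -2.69 to -1.65) and XBP1 of -1.59 (95% interval -1.72 to -1.47), with DNAJB9 at -1.799 and HERPUD1 at -1.35. ERN1, XBP1 and DNAJB9 were thus lower in duct-like cells, as they were in progenitor-like against beta-like cells. There, HERPUD1 was inside the fold on the CPM scale. TRIB3 had a ratio of -1.53 and EDEM1 of -2.01, the latter from 14 UMIs in duct-like cells. ATF4 stood at 0.0085, HSP90B1 at 0.17 and CALR at 0.36. Serine synthesis genes were higher: PHGDH stood at 32.6 and 28.3 CPM in endocrine and 446 and 315 CPM in duct-like cells, a ratio of 3.62 (95% interval 3.55 to 3.68), and PSAT1 had a ratio of 1.95 (95% interval 1.73 to 2.16). STC2, PPP1R15A, SHMT2, PDIA6 and MTHFD2 followed with 1.12, 0.94, 0.89, 0.71 and 0.55. Of 100 other pathway genes measured, 18 were past the fold upward and 34 downward. SLC1A5, a glutamine transporter (2.62), and CTH, a cysteine synthesis enzyme (2.03), stood highest, and WFS1 (-2.56) and VLDLR (-3.47) lowest. In the same comparison 4 of 4 acinar genes measured were past the fold upward (median 4.84), as were 5 of 11 cytosolic heat shock genes (median 0.39). Downward were 7 of 7 metallothionein genes (median -1.42) and 9 of 13 immediate early genes (median -0.63). The part of these lists was not tested.

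Proliferating progenitor-like cells, set against the same endocrine cells, also stood higher in serine and folate enzymes. Of 40 genes, 5 were past the fold upward, against 24.5% of all 11137 genes, and 8 downward, against 9.37%. With the median of all genes (0.11) taken off, 5 were higher, against 20.3%, and 10 lower, against 13.3%. MTHFD2, whose product feeds purine synthesis in dividing cells, stood at 23.7 and 24.4 CPM in endocrine and 63.9 and 64.6 CPM in proliferating cells, a ratio of 1.42 (95% interval 1.33 to 1.51). PHGDH, PSAT1 and SHMT2 had ratios of 1.71, 1.27 and 1.06, SLC7A11, which entered only through proliferating cells, of 0.68, while ASNS stood at 0.11. HSPA5 (-0.71, 95% interval -0.75 to -0.67), HERPUD1 (-0.68), ERO1B (-0.94) and STC2 (-1.06) were lower, as were ERN1 (-0.75), DDIT4 (-0.58), DNAJB9 (-0.54) and WARS (-0.51). Of 99 other pathway genes measured, 13 were past the fold upward and 2 downward. DERL3 (1.86) and ATF3 (1.62) stood highest and VLDLR (-1.03) and PYCR1 (-0.99) lowest. Beside these, 7 of 7 metallothionein genes were past the fold downward (median -2.12), and 5 of 11 cytosolic heat shock (median 0.46) and 5 of 13 immediate early genes (median 0.41) upward. Their part was not tested.

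At a finer resolution beta-like cells parted into Beta-1-like cells, led by IAPP, and Beta-2-like cells, led by WSCD2. Of 39 genes, 6 were past the fold upward in Beta-1-like over Beta-2-like cells, against 5.2% of all 10171 genes, and 4 downward, against 18.5%. With the median of all genes (-0.21) taken off, 12 were higher, against 8.6%, and 0 lower, against 8.99%. ERN1 stood at 12.7 and 10.4 CPM in Beta-2-like and 38.5 and 31.2 CPM in Beta-1-like cells, a ratio of 1.57 (95% interval 1.47 to 1.67). DNAJB9, SDF2L1, CRELD2, PDIA6 and DNAJC3 followed with ratios of 0.95, 0.83, 0.81, 0.62 and 0.57. XBP1 did not follow, with a ratio of -0.13 (95% interval -0.15 to -0.11), and HSPA5 stood at 0.15. DDIT3 (72.1 and 81.6 CPM in Beta-2-like, 46.00 and 51.98 CPM in Beta-1-like cells, ratio -0.64, 95% interval -0.68 to -0.59), PSAT1 (-0.66, under 5 CPM in Beta-1-like cells), DDIT4 (-0.56) and MTHFD2 (-0.51) were higher in Beta-2-like cells, and inside the fold once the median was taken off. Of 98 other pathway genes measured, 17 were past the fold upward and 8 downward. FKBP11 (23.4 to 144 CPM, log2 ratio 2.62) and KDELR3, a receptor that retrieves ER proteins (2.11), stood highest, and ATF5 (66.4 to 20.6 CPM, log2 ratio -1.69) and SEC61B (-0.81) lowest. All 7 metallothionein genes stood higher in Beta-1-like cells (median 2.69), 1 of whose 2 clusters they led. MT1M and MT1H were among the markers by which that cluster was named Beta-1-like, so this was set in part by the naming. The part of metallothionein genes in the values was not tested.

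A split of beta-like cells by the share of their UMIs that was INS, with INS left out of the total, gave each library 4 groups of equal size. The lowest 25% of cells held a median of 12.1% and 12.97% INS and the highest 25% 26.95% and 26.7%. Of 39 genes, 5 were past the fold upward in the highest over the lowest 25%, against 3.06% of all 10573 genes, and 4 downward, against 8.49%. ERN1 stood at 26.4 and 25.2 CPM in the lowest and 58.1 and 43.4 CPM in the highest group, a ratio of 0.97 (95% interval 0.87 to 1.06). DNAJB9 stood at 107 and 98.3 CPM in the lowest and 188 and 166 CPM in the highest group (0.79), with SDF2L1, CRELD2 and DNAJC3 at 0.61, 0.53 and 0.52. XBP1 stood inside the fold, at -0.017 (95% interval -0.044 to 0.011), as did HERPUD1, at 0.046. TRIB3, CHAC1, PSAT1 and MTHFD2 were lower, with ratios of -0.69, -0.61, -0.61 and -0.58, and DDIT3 stood at -0.39. CHAC1 and PSAT1 were under 5 CPM in the highest group and entered only through the lowest. With genes under 20 CPM left out, 1 gene was past the fold downward, against 6.41% of all genes. Of 98 other pathway genes measured, 8 were past the fold upward and 4 downward. Of 16 translocation genes 14 were above 0, where 62.2% of all genes were below it, and 2 were past the fold upward, led by SSR4, a subunit of the translocon-associated complex (1831 to 3436 CPM, log2 ratio 0.91), and FKBP2 stood at 0.75. ATF5 (65.7 to 18.3 CPM, log2 ratio -1.84) and ATF3 (-1.24) stood lowest. The median mitochondrial share was lower in cells with more INS, from 7.93% to 6.13% (no DOX) and from 8.38% to 6.89% (DOX), and 6 of 7 metallothionein genes were past the fold downward. Their part was not tested. The 5 genes past the fold upward were also past it upward in Beta-1-like over Beta-2-like cells. Whether the INS groups differed in their share of those cells was not tested.

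**Figure D4:**
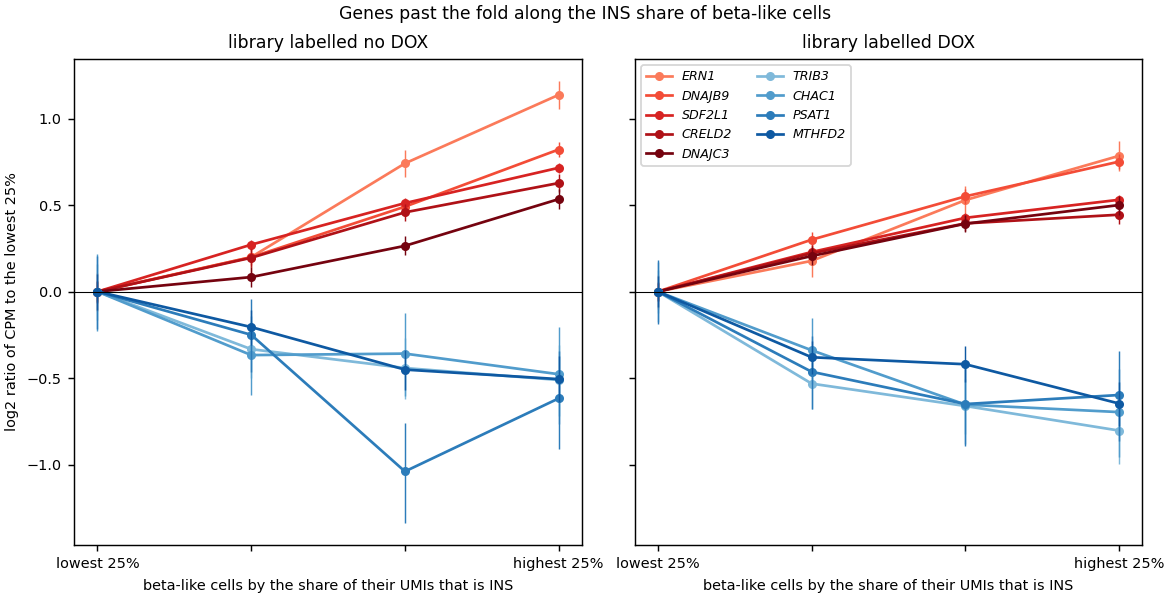
Log2 ratio of CPM to the lowest 25% of cells (vertical) for the 9 genes past the fold, in beta-like cells ordered into 4 equal groups by the share of their UMIs that is INS (horizontal), in the library labelled no DOX (left) and DOX (right); bars are exact Poisson 95% intervals of each level. ERN1 reaches 1.14 and 0.79 in the highest group, and TRIB3 -0.51 and -0.80.

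Across single beta-like cells, each thinned to 5000 UMIs, folding genes varied together only weakly. Among pairs of folding genes with a mean of at least 0.5 UMIs per cell, Spearman's rho had a median of 0.14 over 45 pairs in the library labelled no DOX (6636 cells) and 0.14 over 55 pairs in that labelled DOX (9554 cells). HSPA5 and HSP90B1 had a rho of 0.25 and 0.27, and the highest of all such pairs were 0.25 and 0.27. ERO1B is not among these pairs. Its own pairs with folding genes had medians of 0.10 and 0.10, from 0.034 to 0.14 and from 0.0084 to 0.17, and with them included the medians were 0.14 and 0.13. The summed UMIs of 15 folding genes and of DDIT3 with the 14 ATF4 targets had a rho of 0.035 and 0.010. The cells of a library share its preparation, and low counts per gene limit any rho, so these values are a description.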

How the data were processed

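Droplet single-cell RNA sequencing was analysed for 2 libraries of the iSOX9KO line, 1 labelled no DOX and 1 labelled DOX. The deposited counts are whole UMIs per gene and barcode, made by the authors with Cell Ranger (the file headers give version 3.0.2) on GRCh38, and they were not normalized. The submitters' processing notes also name kallisto, bustools 0.40.0, Scanpy and Seurat, without their roles. The smallest barcode of either file held 500 UMIs, and the files held 550240855 and 520849221 UMIs.

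Barcodes under 1000 UMIs and doublets called per library by Scrublet as built into scanpy 1.11.5 (26.6% and 26.5% of barcodes) were removed, which left 44926 cells. UMIs were scaled to 10000 per cell and log transformed. Total UMIs and mitochondrial percent were regressed out, and 50 principal components were joined through 3 neighbors per library. Leiden clusters (leidenalg 0.10.2) were taken at resolutions 0.2 and 0.5 and named from at least 3 markers of the study's lists without the 40 genes. UMIs were then summed per class and library. Levels carry exact Poisson and ratios exact conditional binomial 95% intervals (scipy 1.17.1), which cover counting error only. With 1 library per condition, cells are not replicates and no test between conditions could be run. Classes were clustered from the same cells and were compared without a test. Cell classes, not sorted populations, were compared, and a lower level per cell cannot be told apart from a mixture of cells in a class. The scripts were tested on simulated data with known ratios. All barcodes of both files were read, and those removed as described above were left out.

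All 40 genes are described by role. In each comparison 4 other pathway genes are named, 2 from either end of their ratios. The members, lists and rules were chosen with earlier results of these data known. The alternatives tried are given in the closing section.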

Additional observations from a re-analysis of the deposited data

Results flagged for a closer look

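STC2 had ratios of opposite sign in a pair of classes in the comparison of the libraries. Set as DOX over no DOX on the log2 scale, its ratio was -0.78 in duct-like cells and 0.18 in alpha-like cells. The counting intervals lay on opposite sides of 0, and the difference was not tested. Both ratios lay inside the 5th to 95th percentile of all genes in their class. That range spanned -0.81 to 0.73 in duct-like and -0.21 to 0.25 in alpha-like cells. The gene and the pair of classes were picked out of all those compared.

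The unnamed cluster with a high mitochondrial share entered the library comparison over all cells kept, but no comparison of classes. In it, 2 of the 40 genes stood above the endocrine classes by at least the fold of 0.5, against 3.68% of all 10457 genes. Another 26 stood below by at least the fold, against 69.3% of all genes, among them CALR (-1.69), PDIA6 (-1.56), HSP90B1 (-1.297) and HSPA5 (-0.90), where the median of all genes was -0.81. The log2 ratio was 0.83 for HERPUD1, an ERAD gene, and 0.73 for SLC7A11, the cystine importer. HERPUD1 stood at 0.75 in the library labelled no DOX alone and 0.92 in that labelled DOX. SLC7A11 was under 5 CPM in the endocrine classes and entered only through this cluster, so it had to be higher. Its ratio rested on 38 UMIs there, and it was inside the fold in the library labelled no DOX alone (0.41) and past it in that labelled DOX (1.03).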

How the results depend on the processing

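The counts of genes past the fold, and the ratios of the genes past it, were recomputed under 18 alternatives in all, 1 of which, at least 5 CPM in both groups, was chosen after seeing the data. Over 1436 ratios of single genes from 13 of them, 1352 were still past the fold and 3 changed sign. With the library labelled no DOX alone 104 of 113 were still past it, and with the library labelled DOX alone 109 of 113. Taking off the median of all genes turned DDIT3 (0.0023), SYVN1 (0.0080) and SLC3A2 (0.068) in beta-like over beta cell progenitor-like cells. Beside each count below stands, in brackets, the percent of all genes past the same fold under that alternative. The same centring moved the counts there from 11 to 20 higher (22.1%) and from 15 to 5 lower (22.1%), in delta-like over beta-like cells to 1 lower (16.2%), and in Beta-1-like over Beta-2-like cells to 12 higher (8.6%) and 0 lower (8.99%). Without hormone and mitochondrial genes in the total, delta-like over beta-like cells gave 27 higher (31.4%) and 0 lower (8.77%), and Beta-1-like over Beta-2-like cells 2 lower (12.7%). At a fold of 1 the counts higher and lower were 7 (3.79%) and 5 (26.6%) for beta-like over progenitor-like, 6 (5.02%) and 0 (5.93%) for delta-like over beta-like, 0 (6.14%) and 1 (5.35%) for alpha-like over beta-like, and 3 (20.2%) and 10 (17.2%) for duct-like over endocrine cells. At that fold 1 gene was lower in proliferating cells (2.4%), 1 was higher (2.03%) and 0 lower (4.81%) in Beta-1-like cells, and 0 were higher (0.596%) and 0 lower (2.79%) between the INS groups. With at least 20 CPM, 1 gene was lower in delta-like cells (23.8%) and 1 between the INS groups (6.41%). With at least 5 CPM in both groups, 2 genes were lower between the INS groups (6.5%). With doublets kept, 2 were higher between the INS groups (2.73%), and no cluster was named proliferating progenitor-like, so that comparison had no value. Without the 40 genes and the other pathway genes in the clustering, 2 were lower in Beta-1-like cells (13.7%). With each class weighted equally, 1 gene was lower in the library labelled DOX over all cells (1.22%). With the library labelled no DOX alone, 5 genes were higher in alpha-like cells (15.4%). With cells thinned to 5000 UMIs, EDEM1 had 0 UMIs in duct-like cells, so that ratio had no value. The causes were not tested beyond what each alternative leaves out. No replicate could be left out, since each condition had 1 library, and this limits the comparison of conditions. Depth limits it as well in the small classes. The median half-width of a level was 19.8% in duct-like and 8.72% in proliferating progenitor-like cells (no DOX library). Conditions could not be paired, because each had 1 library. Classes, which both libraries hold, were not tested as pairs within a library, because they were defined on these same cells.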
